A study of Mus musculus with 48 samples.

Results

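The cytosolic ribosome of a mouse cell is built from ribosomal RNA and a set of small proteins that stay in near-equal amounts in the finished particle. The large subunit joins amino acids and the small subunit reads the mRNA, and a flexible acidic stalk on the large subunit recruits the elongation factors. Transcripts for these proteins are among the most abundant in brain tissue, most begin with a short run of pyrimidines at the cap, the 5′ terminal oligopyrimidine (5′ TOP) tract, and this run couples their translation to growth signalling through mTORC1. The genes have also left many processed pseudogenes in the genome, copies made from the mRNA by reverse transcription, and several have a working second gene, or paralog.

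Members were the protein-coding genes of the expression table whose symbol begins with Rpl or Rps and a digit, plus Rplp0, Rplp1, Rplp2 and Rpsa, leaving out the Rps6k kinases and names marked as pseudogenes. The rule found 86 of the 52636 genes listed. Of these, 77 are core ribosomal proteins (46 of the large and 31 of the small subunit), spread over 19 chromosomes, and 8 are paralogs (Rpl3l, Rpl7l1, Rpl10l, Rpl22l1, Rpl36al, Rpl39l, Rps27l and Rps27rt). The last, Rps19bp1, binds Rps19 and is no ribosomal protein, so it was kept apart from the core genes.

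RNA was sequenced from punches of the right amygdala of 48 female mice, labelled as strain C57BL/6NTac-Brd1, 8 to 11 weeks old, in 6 groups of 8. The groups were WT and *Brd1*+/- mice, each given saline vehicle, 10 mg/kg imipramine (IMN, a tricyclic antidepressant) or 5 mg/kg fluoxetine (FLX, a serotonin reuptake inhibitor). *Brd1*+/- mice carry 1 working copy of *Brd1*, a scaffold of histone acetyltransferase complexes, in every cell and from conception. All mice, vehicle controls included, had gone through behavioural tests that ended in a forced swim, so no group was a resting control. Each library stands for 1 mouse. Values are TPM, a share of each library scaled for transcript length and to a fixed total, which does not show how deeply each library was sequenced.

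*Brd1* itself averaged 35.6 ± 5.09 TPM (SD, n = 8) in WT vehicle and 25.95 ± 2.90 TPM in *Brd1*+/- vehicle mice, and was lower in *Brd1*+/- mice under each treatment (log2 differences -0.45, -0.68 and -0.49 for vehicle, IMN and FLX, two-sided exact permutation tests, p = 0.00109, 0.000155 and 0.000777). All 8 listed amygdala markers were detected and summed to between 296 and 1854 TPM per library, with Tac2, Crh and Pnoc at 0 in some libraries. In 7 libraries the 8 markers of striatal projection neurons summed to between 7192 and 11227 TPM, against 173 to 5114 TPM in the other 41. The group means of the members' summed level are also given without these 7, whereas the correlations over 48 libraries and the subunit balance below include them. In 2 further libraries, WT vehicle replicate 1 and *Brd1*+/- FLX replicate 8, the 8 choroid plexus markers summed to 29719 and 29033 TPM, against at most 10774 TPM in the other 46 (median of all 48, 24.4 TPM). WT vehicle replicate 1 also held the lowest summed neuronal (1886.6 TPM) and amygdala (296 TPM) markers of all 48. None of the 8 oligodendrocyte, 8 microglial, 6 astrocyte or 6 endothelial markers was at 0 in any library, so every punch held a mixture of cell types. In such tissue, fewer cells of a type and less RNA per cell cannot be told apart.

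The transcript starts of the genes that the comparisons turn on are shown first, because the pyrimidine run that couples these mRNAs to mTORC1 lies there. Each line holds 30 bases around the annotated RefSeq start (GRCm38.p6), 5′ to 3′ on the gene's own strand, and capitals mark the pyrimidine run where there is one, defined as a C followed by at least 4 more C or T within 10 bases of the start. The start lies at the middle of each line, so a run in capitals can lie before it, across it or after it. Rps6, Rps21 and Rps18 belong to the small subunit, and Rpl28 and Rpl22 to the large one. Rpl22l1 is the paralog of Rpl22.
Rps6 (chr4:86857353-86857382, minus strand): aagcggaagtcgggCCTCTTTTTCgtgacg
Rps21 (chr2:180257364-180257393, plus strand): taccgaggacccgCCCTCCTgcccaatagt
Rps18 (chr17:33955651-33955680, minus strand): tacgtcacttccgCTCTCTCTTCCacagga
Rpl28 (chr7:4792950-4792979, plus strand): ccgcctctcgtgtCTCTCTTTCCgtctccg
Rpl22 (chr4:152325711-152325740, plus strand): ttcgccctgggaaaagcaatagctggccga
Rpl22l1 (chr3:28805493-28805522, plus strand): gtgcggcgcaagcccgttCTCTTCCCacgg
The run was 10 bases long in Rps6 and Rpl28, 11 in Rps18, 8 in Rpl22l1 and 7 in Rps21. A second annotated start of Rps21 on the same strand (chr2:180257434-180257463) had no run. Rpl22 had none at the start shown above, and the short run given next for its second start lies wholly before that start. A second annotated start of Rpl22 on the same strand (chr4:152324421-152324450) reads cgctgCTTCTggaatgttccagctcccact, with a run of 5 bases.

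RefSeq promoters (250 bases before to 50 after a start) were found for 65 of the 85 ribosomal protein genes and paralogs together, or 77 promoters counting second starts. By the rule above, which does not require the run to lie inside the transcript, 42 of these 77 had a pyrimidine run (54.5%). Of all 32851 promoters 9768 had one (29.7%). Searched on both strands of the whole 300 bases, the letters CCGGAAG, the core bound by ETS-family factors, lay in 27 (35.1%) against 8.86% of all promoters. The letters AAGATGGC, the core bound by YY1, lay in 8 (10.4%) against 2.75%. GGGCGG, a GC box, was in 46 (59.7%) against 35.7%, while TATAAA, the TATA box, was in 7 (9.09%) against 13.6%. These matches describe the sequence and were not read as binding sites.

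One family shows how closely some members resemble each other. Rps27 encodes a zinc-finger protein of the small subunit, Rps27rt is an intronless second gene on chromosome 9, and Rps27l is the diverged paralog of Rps27. Bases 6 to 35 of their coding sequences (of 255 bases each) are given below, and capitals in Rps27l mark bases that differ from Rps27.
Rps27: tctcgcaaaggatctccttcatccctctcc
Rps27rt: tctcgcaaaggatctccttcatccctctcc
Rps27l: CctGgcTaGAgatctGTtAcaCccTtcCTT
Rps27 and Rps27rt did not differ at any of the 255 coding bases, whereas Rps27l differed from Rps27 at 13 bases of this stretch. Reads from the coding part of Rps27 and Rps27rt therefore cannot be assigned to one gene by sequence, and their separate levels are uncertain. Coding identity was 87.9% between Rpl36a and Rpl36al, 76.6% between Rps27 and Rps27l, 69.6% between Rpl22 and Rpl22l1, 57.7% between Rpl7 and Rpl7l1 and 48.6% between Rpl3 and Rpl3l.

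Ribosomal protein transcripts made up a large block of the amygdala transcriptome. The 86 members summed to 16674 ± 1671 TPM (SD over 48 libraries), 1.67% of a library, and ranged from 12621 to 19750 TPM. Of the 77 core genes, 65 averaged over 100 TPM, and their median was 166 TPM. Median levels were 165 TPM for the large and 192 TPM for the small subunit. TPM is scaled for length, and on that scale the core genes covered a 49.9-fold range. Many members share coding sequence with pseudogene copies, described below, so levels of different genes are compared with caution.

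The highest member was Rplp1, an acidic protein of the stalk, at 982 ± 126.7 TPM (752 to 1320 over 48 libraries). Rps15 and Rps21, of the small subunit, followed at 714 ± 74.0 TPM (554 to 900) and 611 ± 98.9 TPM (405 to 809). At the other end of the core genes stood Rpl29 at 19.7 ± 4.57 TPM (3.44 to 25.4) and Rpl21 at 26.3 ± 11.5 TPM (5.39 to 56.5), both of the large subunit. Rpl17 was next at 34.9 TPM. The ranges of the 3 highest genes overlapped each other, as did those of the 3 lowest, whereas every library of Rplp1 lay above every library of Rpl29.

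**Figure D1:**
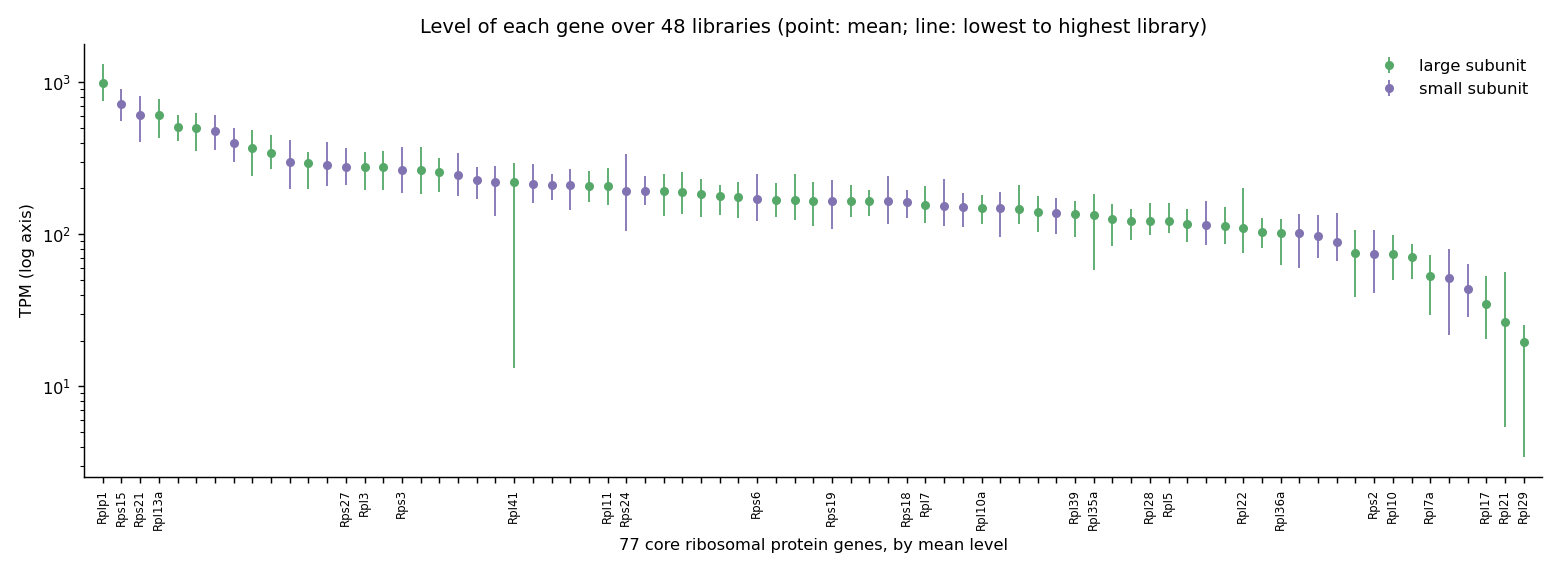
Level of each core ribosomal protein gene in TPM (log axis), as the mean over 48 libraries with the lowest and highest library as bars, genes ordered by their mean with a selection named, the large subunit in green and the small in purple. Means run from 19.7 TPM (Rpl29) to 982 TPM (Rplp1), and genes of both subunits lie along the whole order.

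The 3 lowest core genes were among those with most pseudogene copies, although Rps20 (43.6 TPM) and Rps15a (51.5 TPM), the next in order, had 3 and 9 copies. The annotation (GENCODE M21) held 998 pseudogenes that share at least 1 coding stretch of 50 bases with a member, and 968 of them were above 0 in some library. Their levels summed to 19132 ± 2006 TPM, more than the 16674 TPM of the members. Rpl7a had 96 copies, Rpl21 77, Rpl29 69, Rps2 65 and Rpl17 42. The 11 core genes with at least 20 copies had a median level of 74.4 TPM (19.7 to 278), and the 11 with at most 2 copies had 287 TPM (183 to 611).

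For 29 members every 50-base coding stretch also occurred in another annotated gene or pseudogene, and for 70 members at least 50% of stretches did. Rpl3l, Rpl39l and Rps19bp1 were among the 4 members that shared none. Across the 77 core genes, level and number of copies had a Spearman's rho of -0.487 and a Pearson's r of -0.581 on log scales. The rho of level with annotated exon length was -0.319, and that with coding length was 0.009. Genes are not independent replicates, and these values share the same libraries and the same read assignment. How reads matching several places were counted is not given in the sources used here, and whether reads of these genes stand under their copies was not tested.

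Adding each member's copies to it narrowed the range between the extreme core genes and changed the spread of the middle ones little. The upper quartile over the lower was 2.01-fold for the core genes and 1.88-fold with copies added. The totals ran from 115 TPM (Rpl29) to 1236 TPM (Rps29), or 10.8-fold, with a median of 433 TPM. For 56 of the 80 members with copies, the copies summed to more than the member. Members and copies together made 35806 TPM, 3.58% of a library. Over the 48 libraries, the sum of copies and the sum of members moved together (Pearson's r = 0.991, Spearman's rho = 0.995, 0.991 within groups and 0.99 without the 2 farthest libraries). Both are shares of the same libraries.

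**Figure D2:**
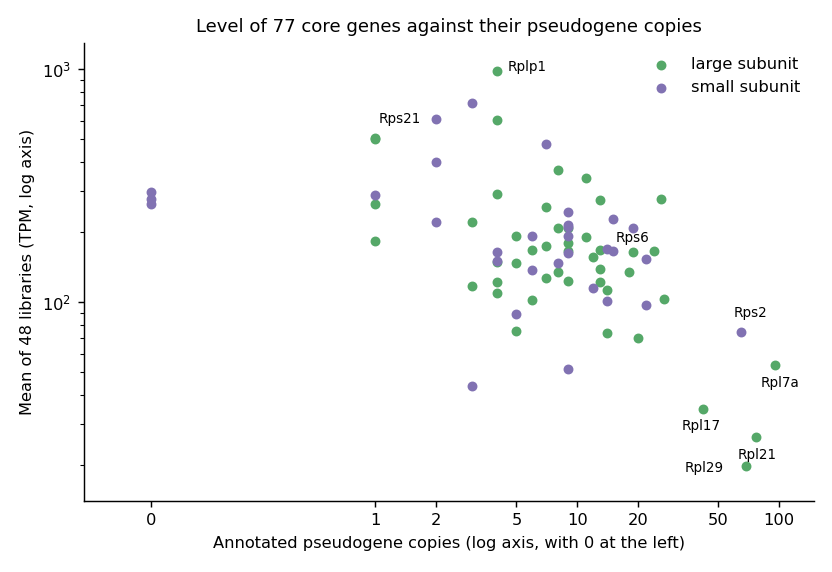
Mean level of each core gene over 48 libraries (TPM, log axis) against its number of annotated pseudogene copies (log axis with 0 at the left), the large subunit in green and the small in purple. The 5 genes with most copies (Rpl7a, Rpl21, Rpl29, Rps2 and Rpl17) lie low, and genes with at most 2 copies lie between 183 and 611 TPM.

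Most core genes varied together from library to library. The coefficient of variation over 48 libraries had a median of 13.7%, from 9.24% for Rpl27a to 43.6% for Rpl21, and 65 of the 77 core genes stayed under 20%. Pearson's r between a core gene and the mean of the other members had a median of 0.763 over the 48 libraries (0.769 within groups), and 62 of 77 genes reached at least 0.5. The highest was Rps3, a protein at the mRNA entry channel, at 0.944. TPM is a share of a fixed total, and all points share the libraries, so these values are a description.

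A minority did not follow the block. Rpl22, an RNA-binding protein of the large subunit, had r = -0.043 with the others, Rpl31 0.045, Rpl29 0.059, Rpl7a 0.068, Rpl35a 0.231, Rpl21 0.245 and Rps24 0.258. Rps19bp1, the binding partner, had -0.257. Of the 7 low core genes, Rpl7a, Rpl29 and Rpl21 are also those with most copies, while Rpl22 and Rps24 varied strongly, with coefficients of variation of 29.6% and 34.9%.

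The core genes were set beside 2 other groups of short nuclear genes. The median r over all pairs of core genes was 0.515, with 95.0% of pairs above 0, and the summed core level had a coefficient of variation of 10.0%. For 78 mitochondrial ribosomal protein genes the median r was 0.121 and the sum varied by 5.16%, and for 82 respiratory chain subunits these were 0.216 and 5.77%. The differences between the 3 sets were not tested.

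The summed level of members did not separate the 6 groups. In WT mice the 8 vehicle libraries ran from 12621 to 18271 TPM (median 15708), the IMN libraries from 13416 to 19264 (17543) and the FLX libraries from 15186 to 18359 (17454). In *Brd1*+/- mice the vehicle libraries ran from 14874 to 17943 TPM (17080), the IMN libraries from 14217 to 19267 (16914) and the FLX libraries from 13595 to 19750 (16566). All 6 ranges overlapped. The lowest mean was that of WT vehicle (15727 ± 1794 TPM, SD, n = 8) and the highest that of WT FLX (17188 ± 1168 TPM), and neighbours in the order of means differed by less than their SD.

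The 7 libraries high in striatal markers had low ribosomal protein sums, 12621 to 14874 TPM against 14376 to 19750 TPM in the other 41. They are WT vehicle replicate 3, WT IMN replicates 2 and 8, *Brd1*+/- vehicle replicate 1, *Brd1*+/- IMN replicates 2 and 6 and *Brd1*+/- FLX replicate 2, with none in WT FLX. Without them the means were 16171 ± 1385 TPM for WT vehicle (n = 7), 17945 ± 1036 TPM for WT IMN (n = 6) and 17188 ± 1168 TPM for WT FLX (n = 8). For *Brd1*+/- mice they were 17053 ± 683 TPM for vehicle (n = 7), 17293 ± 1207 TPM for IMN (n = 6) and 17339 ± 1747 TPM for FLX (n = 7). WT vehicle stayed lowest, and WT IMN became the highest mean.

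**Figure D3:**
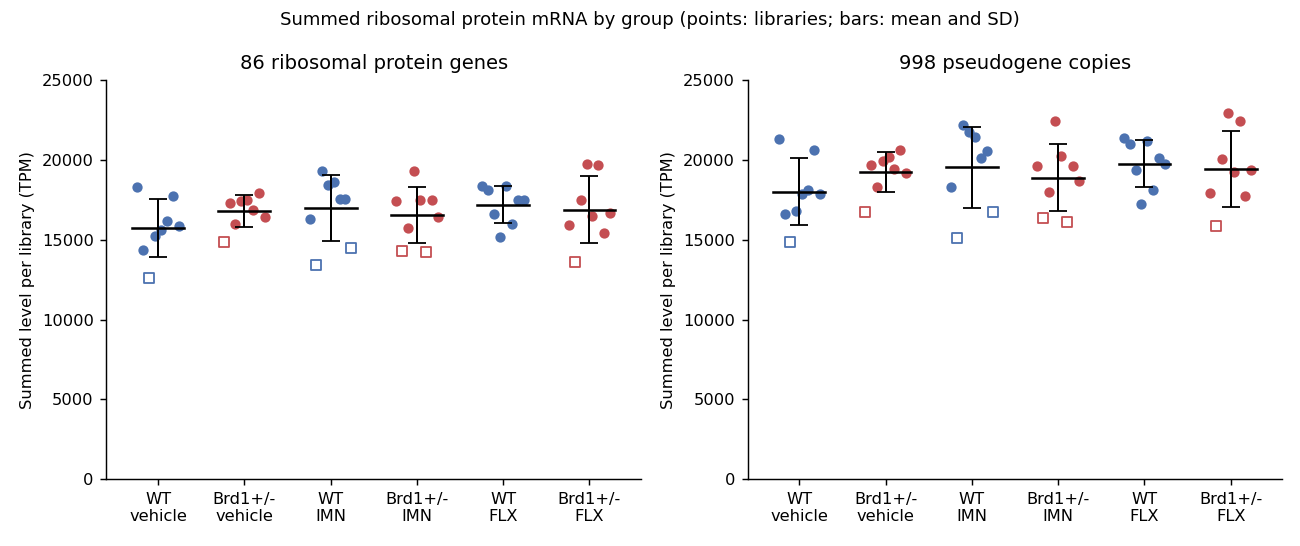
Summed level in each library (TPM) of the 86 members (left) and of their 998 pseudogene copies (right), by group, WT in blue and *Brd1*+/- in red, with bars for the mean and SD of 8 libraries. Open squares are the 7 libraries with striatal markers over 6000 TPM, and they are the lowest members' sums of every group that has one.

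The summed level also moved with cell type markers across the 48 libraries. Pearson's r with the summed astrocyte markers was 0.645 (Spearman's rho 0.673, 0.666 within groups, 0.611 without the 2 farthest libraries). With oligodendrocyte markers it was 0.622 (0.639, 0.617 and 0.634), and with neuronal markers -0.431 (-0.443, -0.432 and -0.463). For amygdala markers r was 0.447 (0.391, 0.511 and 0.388). For endothelial, microglial, red blood cell and choroid plexus markers r was 0.389, 0.277, 0.193 and 0.118. For mitochondrial ribosomal protein genes r was 0.657 (0.574, 0.698 and 0.593). With the RNAs of the mitochondrial genome r was -0.584 (-0.385, -0.619 and -0.506), and with striatal projection neuron markers -0.643 (-0.311, -0.658 and -0.549). All these values include the libraries high in striatal markers and are not given without them. These are descriptions of shares of one total, with no test, and the part of the markers in the levels below was not tested.

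The first question was whether loss of 1 *Brd1* copy came with other ribosomal protein levels in vehicle mice. By limma on log2(TPM + 0.1), with p-values adjusted by Benjamini-Hochberg over all genes tested, 0 of 83 members tested were called at an adjusted p under 0.05, against 172 of 24279 genes (0.708%). At an unadjusted p under 0.05, 7 members were higher in *Brd1*+/- mice (8.43%) and 0 lower, against 6.9% and 1.61% of all genes. All 7 belong to the small subunit. Of the 83 members 75 lay above 0, with a median log2 difference of 0.09 (0.06 for the large and 0.14 for the small subunit) beside 0.03 over all genes.

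Rps21, a protein of the small subunit, had the smallest p. Its levels ran from 489 to 659 TPM (median 537) in WT vehicle and from 575 to 714 TPM (653) in *Brd1*+/- vehicle mice, so the groups overlapped between 575 and 659 TPM. The log2 difference was 0.26 ± 0.08 (SE, 95% interval 0.10 to 0.42, limma, adjusted p = 0.20). Rps6, the substrate of S6 kinase, ran from 127.3 to 195 TPM (137.9) in the WT group and from 138.9 to 228 TPM (167) in the *Brd1*+/- group, a log2 difference of 0.25 (limma, adjusted p = 0.54).

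Rps24, mutated in some forms of Diamond-Blackfan anaemia, had the largest core difference, 0.50. It ran from 104 to 254 TPM (median 141) in the WT group and from 148 to 315 TPM (221) in the *Brd1*+/- group, a spread that covers most of both groups (limma, adjusted p = 0.56). Rps13, Rps23, Rps27 and Rps27a, also of the small subunit, had log2 differences between 0.15 and 0.23. In the other direction Rpl35a had the smallest p, with means of 138.4 TPM and 115 TPM (log2 difference -0.33, limma, adjusted p = 0.641).

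Glial markers moved with the same pair of groups. All 8 oligodendrocyte markers had higher values in *Brd1*+/- vehicle mice at an unadjusted p under 0.05 with 0 called by limma (median log2 difference 1.49), and their sum ran from 718 to 11721 TPM in WT and from 2453 to 17129 TPM in *Brd1*+/- vehicle mice. At the same level 4 of 8 microglial (median 0.28) and 3 of 6 astrocyte markers (median 0.34) were higher, with 0 called. Their part in the values of Rps21 and the other 6 genes was not tested.

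These counts depended on single libraries. Leaving out 1 library at a time moved the members at an unadjusted p under 0.05 from 7 to between 1 (without WT vehicle replicate 2, 3, 5 or 8) and 18 (without WT vehicle replicate 1). Without WT vehicle replicate 3, which is high in striatal markers, 57 of 83 members lay above 0 and their median was 0.03, beside 0.0012 over all genes in that fit. Without WT vehicle replicate 1, 1 member was called by limma, Rps27l (log2 difference 0.46, adjusted p = 0.0458), whose level in that library was 72.6 TPM against 23.2 to 33.8 TPM in the other 7. That library held the highest choroid plexus sum of all 48, and its part in the value was not tested. The share of all genes called without it is not given here.

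**Figure D4:**
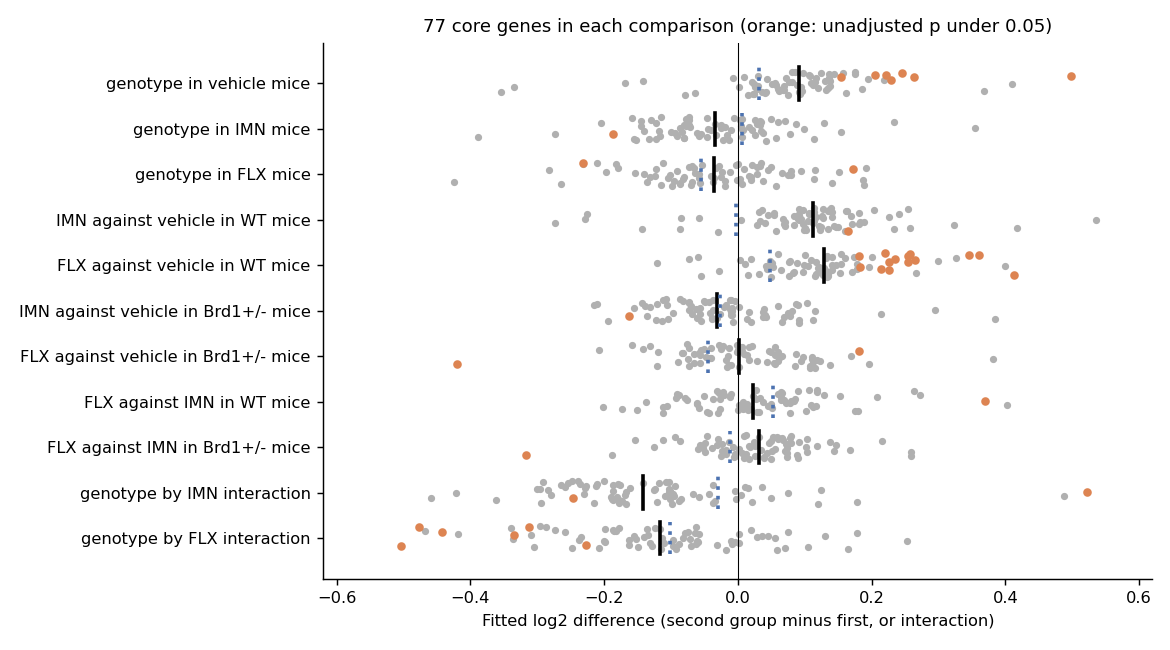
Log2 differences (limma, log2(TPM + 0.1)) of the 77 core genes in each of the 11 comparisons, 1 point per gene, orange at an unadjusted p under 0.05. The black bar is the median of the core genes and the dotted blue line the median of all genes tested. The core median lies above that of all genes for genotype in vehicle and in FLX mice and for both drugs in WT mice. It also lies above for FLX against vehicle and FLX against IMN in *Brd1*+/- mice.

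Under treatment, fewer members than in vehicle mice had an unadjusted p under 0.05 between genotypes. Among all genes tested, that share was smaller with IMN and larger with FLX than with vehicle. In IMN mice 0 of 83 members were called by limma, against 4 of 23581 genes (0.017%), and 1 had an unadjusted p under 0.05 against 3.58% of all genes. That gene was Rpl28, of the large subunit, which ran from 113 to 159 TPM (median 123.8) in WT and from 99.0 to 126.3 TPM (111) in *Brd1*+/- IMN mice (log2 difference -0.19, limma, adjusted p = 0.9996). The groups overlapped. The smallest p among higher members was that of Rpl7a, at 47.0 and 58.8 TPM (log2 difference 0.35, limma, adjusted p = 0.9996), and the median over members was -0.03 beside 0.01 over all genes.

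In FLX mice 0 of 83 members were called by limma, against 364 of 23635 genes (1.54%), and 1 higher and 1 lower member had an unadjusted p under 0.05 against 16.6% of all genes. The higher one, Rps18, a protein of the head of the small subunit, ran from 146 to 177 TPM (median 153) in WT and from 146 to 196 TPM (179) in *Brd1*+/- FLX mice (log2 difference 0.17, limma, adjusted p = 0.188). The groups overlapped for Rps18. Of the members 53 lay below 0, and the median over members was -0.04 beside -0.06 over all genes. Scaling libraries by the median ratio in place of TPM put the members' median at 0.03.

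In WT mice most members were higher with either drug than with vehicle, by small amounts that did not pass the test. With IMN, 0 of 83 members were called by limma, as were 0 of 23644 genes (0.0%), and 1 had an unadjusted p under 0.05 against 4.58% of all genes. Of the members 74 lay above 0, with a median of 0.11 beside -0.00 over all genes. Rpl10a, of the large-subunit L1 stalk, averaged 137 TPM in vehicle and 152 TPM in IMN mice (log2 difference 0.16, limma, adjusted p = 0.97). In the other direction Rpl7a was at 53.5 and 47.0 TPM (log2 difference -0.23, limma, adjusted p = 0.97). Without the 7 libraries high in striatal markers, 20 members had an unadjusted p under 0.05 and 0 were called, with a median of 0.15. The share of all genes at that level in this fit is not given here.

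With FLX in WT mice, 0 of 83 members were called by limma, against 79 of 23557 genes (0.335%). At an unadjusted p under 0.05, 17 members were higher (20.5%) and 1 lower (1.2%), against 10.5% and 6.25% of all genes. Of the members 77 lay above 0, with a median of 0.13 (0.12 for the large and 0.15 for the small subunit) beside 0.05 over all genes, 0.09 over mitochondrial ribosomal proteins and 0.14 over respiratory chain subunits. Members vary together, so these counts do not rest on 83 separate measurements. Both drug comparisons share the 8 WT vehicle libraries. The sample codes in the labels fell into separate ranges for vehicle and for drug-treated mice, so a drug and whatever these ranges mark cannot be told apart. Among drug-treated mice the highest codes belonged to WT mice alone, and those next below to *Brd1*+/- mice alone, in part of each group. Genotype comparisons within a drug and the interactions are therefore partly mixed with whatever these codes mark.

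Rps6 had the smallest p of all members in any comparison. It ran from 127.3 to 195 TPM (median 137.9) in WT vehicle and from 163 to 209 TPM (181) in WT FLX mice, and 1 vehicle library, replicate 1, held the 195 TPM. The log2 difference was 0.35 ± 0.09 (SE, 95% interval 0.16 to 0.53, limma, adjusted p = 0.0843). Rps3 ran from 186 to 291 TPM (232) in vehicle and from 260 to 308 TPM (274) in FLX mice, with a log2 difference of 0.25 (limma, adjusted p = 0.142).

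The other 15 higher members had means between 28.3 and 552 TPM in vehicle mice. They include Rps9, Rps12, Rps19, Rps21, Rps3a1 and Rpsa of the small subunit, Rpl17, Rpl30, Rpl32 and Rpl39 of the large, and the paralogs Rpl7l1, Rpl22l1 and Rpl36al. Rpl17 had the largest of these log2 differences, 0.41 (30.8 and 40.9 TPM), and Rpl7l1 the smallest, 0.17. The 1 lower gene was the binding partner Rps19bp1, at 35.9 and 29.98 TPM (log2 difference -0.25, limma, adjusted p = 0.166), while Rps19 itself was at 149 and 178 TPM (log2 difference 0.26, limma, adjusted p = 0.234). Those not of the smallest p, other than the paralogs and Rps19, were named after their values were seen.

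Leaving out 1 library at a time moved the 18 members at an unadjusted p under 0.05 to as few as 7, in the absence of WT FLX replicate 1, and as many as 33, in that of WT vehicle replicate 1. The latter library held the highest choroid plexus and the lowest neuronal and amygdala marker sums of all 48 libraries. Without it, limma called 956 of 23260 genes and 4 members in WT FLX against vehicle mice, Rps6 (log2 difference 0.41, adjusted p = 0.0145), Rps3 (adjusted p = 0.039), Rpl30 (adjusted p = 0.0426) and Rps9 (adjusted p = 0.0434). Without WT vehicle replicate 7, Rps6 alone was called (adjusted p = 0.0499). Leaving out the 7 libraries high in striatal markers left 0 called and 8 at an unadjusted p under 0.05, with a median of 0.09. All 8 oligodendrocyte markers were higher in WT FLX than in WT vehicle mice at an unadjusted p under 0.05 with 0 called by limma (median log2 difference 1.18), summing to between 2103 and 9020 TPM in FLX mice, and their part was not tested, nor was that of choroid plexus.

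In *Brd1*+/- mice the members' medians stayed near 0 with either drug. With IMN, 0 of 83 were called by limma, against 188 of 24225 genes (0.776%), and 2 had an unadjusted p under 0.05 against 9.3% of all genes. Rpl22l1 averaged 182 TPM in vehicle and 226 TPM in IMN mice (log2 difference 0.30, limma, adjusted p = 0.502), and Rpl28 128 and 114 TPM (log2 difference -0.16, limma, adjusted p = 0.518). Of the members 27 lay above and 56 below 0, and their median was -0.03, equal to that over all genes to 2 decimals.

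With FLX in *Brd1*+/- mice, 0 of 83 members were called by limma, against 178 of 24336 genes (0.731%), and 2 had an unadjusted p under 0.05 against 6.94% of all genes. Rps18 averaged 155.1 TPM in vehicle and 176 TPM in FLX mice (log2 difference 0.18, limma, adjusted p = 0.608). Rpl22 averaged 129 and 91.3 TPM (log2 difference -0.42, limma, adjusted p = 0.613). Of the members 43 lay above 0, and the median was 0.00 beside -0.04 over all genes.

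The 2 drugs were also set against each other. In WT mice 0 of 83 members were called by limma, as were 0 of 23501 genes (0.0%), and 1 had an unadjusted p under 0.05 against 4.78% of all genes. It was Rpl7a, at 47.0 TPM with IMN and 58.7 TPM with FLX (log2 difference 0.37, limma, adjusted p = 0.858), and among lower genes Rps19bp1 had the smallest p (log2 difference -0.15, limma, adjusted p = 0.858). In *Brd1*+/- mice 0 members were called by limma, as were 0 of 23724 genes (0.0%), and 1 had an unadjusted p under 0.05 against 2.99% of all genes. That was Rpl22, at 117 TPM with IMN and 91.3 TPM with FLX (log2 difference -0.32, limma, adjusted p = 0.9997), and among higher genes Rpl36al had the smallest p (log2 difference 0.13, limma, adjusted p = 0.9997).

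Whether the drug difference itself depended on genotype was tested as an interaction, the *Brd1*+/- difference minus the WT difference. For IMN, 0 of 83 members were called by limma, against 143 of 26673 genes (0.536%), and 2 had an unadjusted p under 0.05 against 9.24% of all genes. These were Rpl7a at 0.52 (limma, adjusted p = 0.499) and Rpl28 at -0.25 (limma, adjusted p = 0.506). Of the members 69 lay below 0, with a median of -0.13 (-0.10 for the large and -0.19 for the small subunit) beside -0.03 over all genes and 0.05 over mitochondrial ribosomal proteins. In the same interaction all 8 oligodendrocyte markers (median -1.945) and 6 of 8 microglial markers (median -0.47) were lower at an unadjusted p under 0.05 with 0 called by limma, and their part was not tested.

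For FLX, 0 of 83 members were called by limma, against 455 of 26657 genes (1.71%). At an unadjusted p under 0.05, 6 members were lower (7.23%) and 0 higher, against 11.7% and 5.08% of all genes, and the median over members was -0.12 beside -0.10. Rps6 was at -0.48 ± 0.16 (SE, limma, adjusted p = 0.109), and Rps21, Rpl22 and Rpl24 lay between -0.50 and -0.23. Among members above 0, Rps18 had the smallest p, at 0.18 (limma, adjusted p = 0.348). Rpl24 was named after its values were seen, as were Rps24 and the 4 small-subunit genes beside it above. Without *Brd1*+/- FLX replicate 4, limma called Rps6 (adjusted p = 0.0431). Without both libraries high in choroid plexus markers, it called 752 of 26378 genes, Rps6 (-0.57, adjusted p = 0.0369) and Rps27l (-0.65, adjusted p = 0.0483) among them. All 8 oligodendrocyte markers (median -2.01), 2 of 6 astrocyte and 2 of 6 endothelial markers were lower in this interaction at an unadjusted p under 0.05 with 0 called by limma, and their part was not tested.

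A single test of any difference among the 6 groups over all 48 libraries called 0 of 84 members by limma's F test, against 476 of 27944 genes (1.7%). At an unadjusted p under 0.05 there were 0 members against 11.5% of all genes, the smallest p being that of Rpl36al (adjusted p = 0.449). The precision behind these results is shown by the 95% intervals, whose median half-width over core genes was between 0.20 and 0.30 on the log2 scale. Between 73 and 77 of the 77 core intervals, depending on the comparison, lay inside 1 log2 unit of 0, so a doubling or halving was outside the interval for nearly all core genes.

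**Figure D5:**
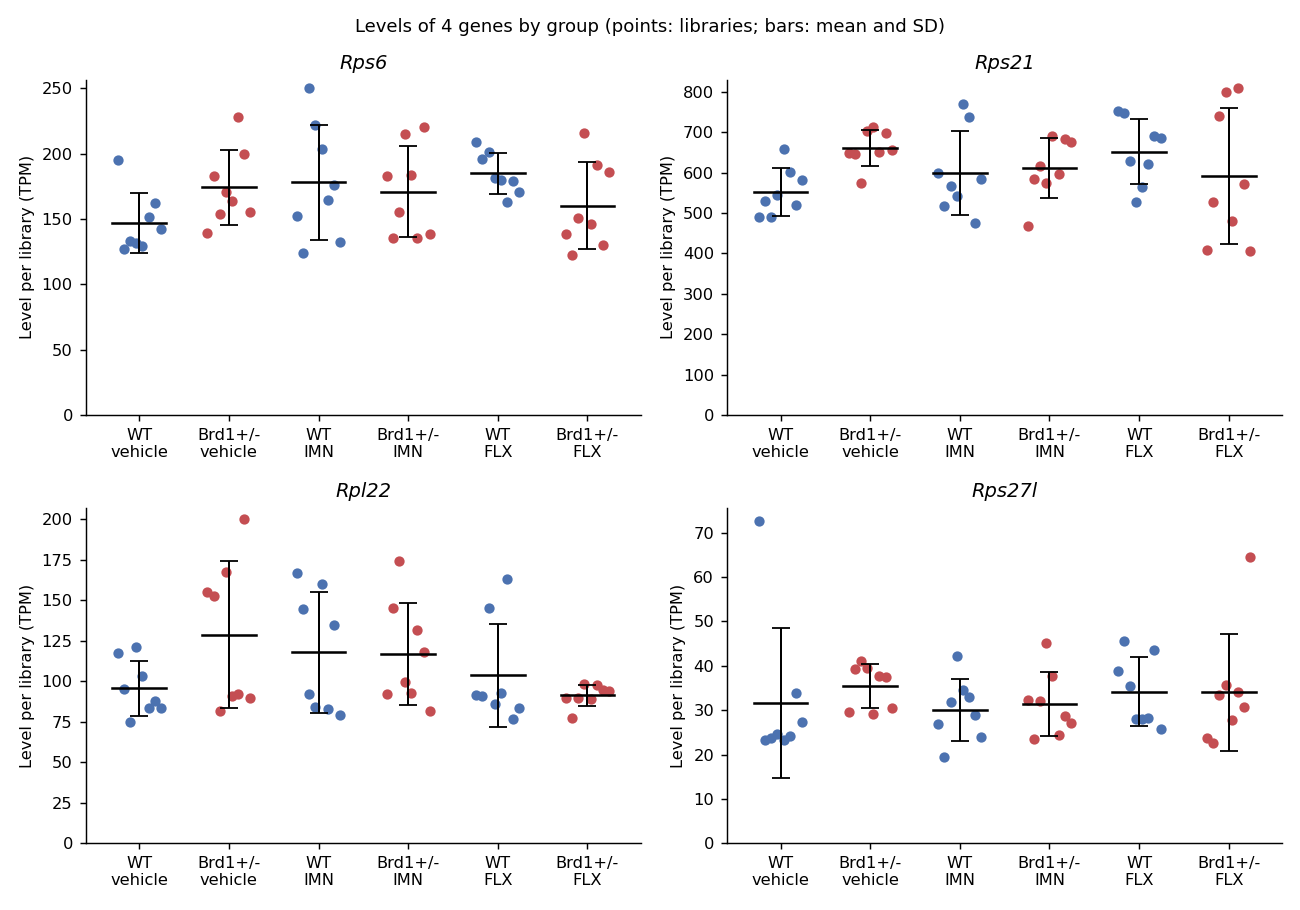
Level in TPM of Rps6, Rps21, Rpl22 and Rps27l in each library by group (WT in blue, *Brd1*+/- in red), with bars for the mean and SD of 8 libraries. Groups overlap for all 4 genes, and single libraries stand apart for Rps27l, at 72.6 TPM in WT vehicle and 64.5 TPM in *Brd1*+/- FLX.

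Rps6 showed no order shared by both genotypes across treatments. Its median was 137.9 TPM with vehicle, 170 TPM with IMN and 181 TPM with FLX in WT mice, and 167, 169 and 148 TPM in *Brd1*+/- mice. All 6 ranges overlapped, with the lowest library at 123 TPM in *Brd1*+/- FLX and the highest at 250 TPM in WT IMN. WT FLX was the narrowest group, from 163 to 209 TPM.

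Rps21 had a wide *Brd1*+/- FLX group, from 405 to 809 TPM (median 549), which held both the lowest and the highest of all 48 libraries. WT IMN ran from 476 to 770 TPM (575), *Brd1*+/- IMN from 468 to 690 TPM (606) and WT FLX from 528 to 751 TPM (656). The median of WT vehicle (537 TPM) was the lowest of the 6, and those of *Brd1*+/- vehicle (653 TPM) and WT FLX were the highest.

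Rpl22 was uneven in another way. It lay at 131 TPM or above in 13 of 48 libraries and at 120.98 TPM or below in the others. The 13 were 4 of *Brd1*+/- vehicle, 4 of WT IMN, 3 of *Brd1*+/- IMN and 2 of WT FLX mice, with 0 in WT vehicle and *Brd1*+/- FLX. The limit was set after the values were seen, so it gives no test. WT vehicle ran from 74.7 to 120.98 TPM (median 91.4) and *Brd1*+/- vehicle from 81.8 to 200 TPM (122.4), while *Brd1*+/- FLX stayed between 77.6 and 98.1 TPM (92.0).

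Rpl22l1 stood higher than Rpl22 at 202 ± 45.0 TPM over 48 libraries, and ran from 123 TPM in WT vehicle to 331 TPM in WT FLX. Its r with the other members was 0.662, unlike that of Rpl22 (-0.043). The difference between these correlations was not tested.

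Among the other paralogs, Rpl36al (117 ± 12.7 TPM) was close to Rpl36a, whose group means ran from 97.1 to 106 TPM. Rps27 had group means between 253 and 292 TPM, Rps27rt 105 to 114 TPM and Rps27l 30.1 to 35.5 TPM, with the identical coding sequence of the first 2 making their split uncertain. Rpl7l1 averaged 29.1 ± 3.33 TPM beside 156 ± 23.0 TPM for Rpl7. Rpl3l, known from heart and skeletal muscle, was at 0 in 38 libraries and reached 1.52 TPM at most. Rpl10l and Rpl39l, known from male germ cells, were listed at 0 in all 48 libraries, beside 73.7 ± 9.93 TPM for Rpl10 and 135.1 ± 16.3 TPM for Rpl39.

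Textbook members had narrow spans of group means. Rpl5 and Rpl11, which carry the 5S ribosomal RNA and bind Mdm2, had group means from 117 to 128 TPM and from 199 to 224 TPM. Rps19, the gene most often mutated in Diamond-Blackfan anaemia, ranged from 149 to 178 TPM in group means. Rpl10, which joins the large subunit late in its assembly, ranged from 69.9 to 76.4 TPM. Rpl41, the smallest ribosomal protein, ranged from 203 to 235 TPM, with WT vehicle replicate 3 alone at 13.2 TPM. These spans were no wider than the largest SD of a single group for the same gene.

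Genes that work with the ribosome were read from lists in the same fits. Ribosomal proteins named outside the symbol rule, Fau and Rack1 among them, had 0 calls by limma in any of the 11 comparisons. So did 30 assembly factors and subunits of RNA polymerase I, with medians from -0.06 to 0.11, and 16 genes of mTORC1 and S6 kinase signalling, with medians from -0.07 to 0.08. At an unadjusted p under 0.05, the last 2 lists had at most 6 genes each in a comparison and the first at most 1. At that level, 6 of 30 assembly factors had a higher value in the FLX interaction, where 0 members did.

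Other mRNAs known for a 5′ TOP tract gave the calls closest to the members. Of 17 genes, Pabpc1, the poly(A)-binding protein, was higher in *Brd1*+/- FLX mice (106 TPM) than in WT FLX mice (82.8 TPM, log2 difference 0.37, limma, adjusted p = 0.0342), and its FLX interaction was called (0.46, adjusted p = 0.0275). Eef2, the translocating elongation factor, had a called FLX interaction of -0.37 (limma, adjusted p = 0.0299). In WT mice Eef2 was at 610 TPM with vehicle and 736 TPM with FLX (limma, adjusted p = 0.0574). The 2 genes lay on opposite sides of 0, and the other 15 had 0 calls. With FLX in WT mice, 4 of the 17 were higher and 3 lower at an unadjusted p under 0.05. Among the 6 genes of the Mdm2 and p53 pathway, which senses unassembled Rpl5 and Rpl11, limma called Cdkn1a higher with FLX in WT mice (26.5 and 42.8 TPM, adjusted p = 0.0422) and Zmat3 lower with IMN in *Brd1*+/- mice (38.2 and 29.2 TPM, adjusted p = 0.0339).

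Members with a pyrimidine run near any annotated start and those without had like medians. Whether the annotated starts are those used in the amygdala was not tested, so members without a run here may still carry one. The split is therefore one of annotated sequence and does not set 5′ TOP mRNAs against others. In vehicle mice the log2 difference between genotypes had a median of 0.09 over 37 members with a run and 0.08 over 25 without. For FLX against vehicle in WT mice both medians were 0.13, and for the FLX interaction they were -0.10 and -0.13. No test was made of these medians, since the genes share libraries.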

How the data were processed

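Amygdala RNA of 48 mice was measured by RNA sequencing, 1 library a mouse. Per the submitters' processing notes, the tools included FastQC, Trimmomatic, HISAT2 (2.1.0) and StringTie (1.3.4), with GRCm38. The authors deposited TPM, 1 column a library (0 columns matched no sample), which sum to between 999523.6 and 999772.3 TPM. TPM keeps no depth, so no counting intervals were given. The strand setting and the treatment of reads matching several places are not given in the sources used here. The study used edgeR on counts, which were not used here.

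Genes at 0.1 TPM or more in at least 8 libraries of a fit were tested by limma (3.58.1, R 4.3.3; lmFit, eBayes with trend) on log2(TPM + 0.1), two-sided, with only the groups compared. P-values were adjusted by Benjamini-Hochberg over all genes tested and called at 0.05. An F test used all 48 libraries. Fold changes are on the log2(TPM + 0.1) scale, which understates the change of low genes. The labels give each library its own sample code, and p-values measure the spread between these libraries. *Brd1* was tested by exact permutation (12870 arrangements). GENCODE M21 on GRCm38 gave classes and coordinates for 52489 of 52636 IDs. Promoters and genome sequence came from RefSeq tables of GRCm38.p6. Python 3.11.15, numpy 2.4.6, pandas 2.3.3, scipy 1.17.1 and matplotlib 3.10.9 were used. Scripts were tested on simulated data.

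Text named the member with the smallest p per direction and comparison, every member called, the 3 highest and lowest, the paralogs with partners, and Rps6, Rpl5, Rpl11, Rps19, Rpl10 and Rpl41. A few members that the rule names are not reported here. The members and lists were chosen with earlier results of these data known. Alternatives were the pseudocount, the filter, scaling, the gene universe, the replicate block, the sample code ranges and leaving out each of 48 libraries. The range of higher drug codes pooled those held by WT mice alone and by *Brd1*+/- mice alone, so that alternative cannot separate them. Adding copies to members and leaving out the 7 libraries high in striatal or the 2 high in choroid plexus markers were chosen after seeing the data. The series' design text names other brain regions, and the sample labels (amygdala) were followed. *Brd1*+/- mice were constitutive heterozygotes made by deleting loxP-flanked exons.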

Additional observations from a re-analysis of the deposited data

Results flagged for a closer look

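In each group of 8 libraries, the highest and the lowest level of the genes named above, *Brd1* and summed levels were compared with the rest by Dixon's gap ratio at its 95% critical value. This marked 11 of 168 combinations, and chance marks about 1 in 20. No difference of a member between genotypes in its drug response passed a test of that difference.

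In WT vehicle mice, replicate 1 held the highest Rps27l, 72.61 TPM with the next library at 33.76 TPM, and the highest Rpl5, 143.3 TPM with the next at 118.7 TPM. Replicate 3 of the same group, one of the 7 libraries high in striatal markers, held the lowest Rpl41, 13.24 TPM with the next at 178.6 TPM. Replicate 1 is also the library whose absence turned Rps27l, Rps6, Rps3, Rpl30 and Rps9 into calls in comparisons with WT vehicle mice.

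*Brd1*+/- vehicle replicate 1, also high in striatal markers, held the lowest Rpl10, 49.74 TPM with the next at 67.24 TPM. *Brd1*+/- FLX replicate 2, likewise high in striatal markers, held the lowest Rpl22 (77.61 TPM, next 89.25 TPM), Rpl22l1 (142.3 TPM, next 198.4 TPM) and Rpl36a (77.84 TPM, next 99.46 TPM).

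The other 4 values were high ones in libraries not among the 7. Rps24 was 326.6 TPM in WT IMN replicate 5 (next 181.8 TPM) and Rps19bp1 was 42.1 TPM in WT IMN replicate 6 (next 34.77 TPM). Rps18 was 177.2 TPM in WT FLX replicate 2 (next 159.4 TPM), and Rps27l was 64.46 TPM in *Brd1*+/- FLX replicate 8 (next 35.66 TPM). That library and WT vehicle replicate 1 held by far the most choroid plexus markers, 29033 and 29719 TPM, and WT FLX replicate 2 held 8811 TPM, against a median of 24.4 TPM over 48 libraries.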

How the results depend on the processing

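Counts of called members and median differences were recomputed under 62 settings. Of 795 recomputed values, 782 moved by less than 1.5 times (counts of calls) or by less than the spread between libraries (medians and sums). For medians this spread was 0.15 on the log2 scale, whereas the main medians lay between -0.13 and 0.13. A median could thus vanish or change sign and still count as unmoved. The main counts of calls were all 0, so the 782 values do not show that the medians are stable. Members called by limma ranged from 0 to 1 for genotype in vehicle mice and for the FLX interaction, and from 0 to 4 for FLX against vehicle in WT mice, when each library was left out in turn; in the other comparisons no library's absence gave a call. Without both libraries high in choroid plexus markers, an alternative chosen after seeing the data, 1, 4 and 2 members were called for genotype in vehicle mice, FLX in WT mice and the FLX interaction. Under every other setting 0 members were called, the replicate block included. Counts at an unadjusted p under 0.05 depended more on single libraries, from 1 to 18 for genotype in vehicle mice, 7 to 33 for FLX in WT mice, 0 to 14 for IMN in WT mice, 0 to 11 for the IMN interaction and 4 to 12 for the FLX interaction. For most fits without a library, the share of all genes called or at that level is not given here. Such calls and counts are therefore not read as particular to the members. In no comparison did every same-numbered pair of libraries correlate above 0.1 (r from -0.303 to 0.578), so the numbers were not taken to pair mice. With the replicate block, members at an unadjusted p under 0.05 were 5 for genotype in vehicle mice, 17 for FLX in WT mice and 4 for the FLX interaction, and genes called went from 172 to 63 and from 79 to 0 in the first 2. With protein-coding genes alone as the total, mean sums of members were larger by construction, at 18846.3, 20349.4 and 20599.7 TPM in WT vehicle, IMN and FLX mice and 20263, 19862.1 and 20361.2 TPM in *Brd1*+/- mice. Median-ratio scaling turned the members' median from -0.04 to 0.03 for genotype in FLX mice and from 0.03 to -0.03 for FLX against IMN in WT mice, and lowered that for FLX in WT mice from 0.13 to 0.08, with 9 members at an unadjusted p under 0.05. With copies added to members, an alternative chosen after seeing the data, these were 6 for genotype in vehicle mice and 21 for FLX in WT mice, with medians of 0.10 and 0.13. Precision is limited by 8 mice a group and by reads that members share with copies.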

Other observations

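The balance between the subunits was looked at after the values were seen and is given without a test. The summed TPM of large-subunit core genes divided by that of small-subunit core genes was 1.398 ± 0.021 (SD, n = 8, 1.37 to 1.43) in WT vehicle and 1.32 ± 0.03 (1.27 to 1.36) in *Brd1*+/- vehicle mice, which did not overlap. It was 1.37 and 1.35 with IMN and 1.35 and 1.36 with FLX in WT and *Brd1*+/- mice, where the genotypes overlapped. Without Rps21, the ratio ran from 1.47 to 1.57 in WT and from 1.392 to 1.495 in *Brd1*+/- vehicle mice, and with copies added from 1.415 to 1.511 and from 1.367 to 1.444, both overlapping. As a difference of mean log2 levels, which weighs each gene alike, the ranges also overlapped (-0.27 to -0.13 and -0.32 to -0.22). Over 48 libraries the ratio had a Pearson's r of 0.468 (Spearman's rho 0.504, 0.407 within groups and 0.469 without the 2 farthest libraries) with neuronal markers. It had r = -0.411 (rho -0.465, -0.337 within groups and -0.327 without the 2 farthest libraries) with oligodendrocyte markers, all 8 of which had an unadjusted p under 0.05 between the vehicle groups with 0 called by limma, and their part was not tested.

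Among genes of other translation and energy sets in the same fits, limma called the mitochondrial ribosomal protein gene Mrpl35 in the FLX interaction (-0.42, adjusted p = 0.046) and 3 respiratory chain subunits lower in *Brd1*+/- than in WT FLX mice, Ndufb8 (-0.41, adjusted p = 0.0251), Uqcrc1 (-0.24, adjusted p = 0.0395) and Ndufs1 (-0.27, adjusted p = 0.0401). Ndufb8 (-0.45, adjusted p = 0.0477) and Ndufs1 (-0.38, adjusted p = 0.0235) were also called in the FLX interaction. These are comparisons in which 0 cytosolic ribosomal protein genes were called.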
